A study of Rattus norvegicus with 23 samples.

Results

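Heart muscle genes in the lungs of smoke-exposed rats are described here for 10 genes chosen by symbol: Myl4, Myl7, Mybpc3, Myom2, Myh6, Tnni3, Tnnt2, Actc1, Nppa and Ryr2. Of these, 9 had a row among the 19249 genes of the expression table, and Nppa was not analysed here. All 9 reached a mean of at least 10 normalized counts over the libraries and were among the 14414 genes tested. The genes were chosen with their difference between low smoke and air and their spread between libraries already known, so both are given as descriptions.

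RNA came from frozen lung tissue of male rats, 1 library per rat, with strain and age not given in the sources used here. The 24 rats were randomized to filtered air, low smoke or high smoke from burning eucalyptus, inhaled by the whole body on 4 days of the first week and, after 3 days without exposure, on 3 days of the second. The target carbon monoxide concentration was 10 ppm for low smoke and 20 ppm for high smoke. The table held 7 air, 8 low smoke and 7 high smoke libraries, and the sample labelled as high smoke replicate 8, which the labels mark as removed, was not analysed here.

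In rodents a sleeve of heart muscle runs from the left atrium along the pulmonary veins into the lung, so that pieces of lung can hold striated heart muscle beside the smooth muscle of airways and arteries. Heart muscle contracts when myosin thick filaments pull on actin thin filaments within the sarcomere. Calcium released from the sarcoplasmic reticulum through the ryanodine receptor binds the troponin complex and lets myosin reach actin. Atrial and venous heart muscle use the light chains Myl4 and Myl7, whereas the ventricles use Myl3 and Myl2.

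RefSeq promoter entries (build GRCr8) were found for 9 of the 10 genes. The 250 bases before the start site are shown for 4 genes whose levels moved together across libraries: both atrial light chains, the thick filament protein Mybpc3 and the motor Myh6. They lie at chr10:89975900-89976149 on the plus strand (Myl4), chr14:84996625-84996874 on the minus strand (Myl7), chr3:97550811-97551060 on the plus strand (Mybpc3) and chr15:32411698-32411947 on the minus strand (Myh6). Capitals mark matches on either strand to core motifs of cardiac transcription factors, given after the sequences by their letters or, for the MEF2 core and the CArG box, by name.
Myl4: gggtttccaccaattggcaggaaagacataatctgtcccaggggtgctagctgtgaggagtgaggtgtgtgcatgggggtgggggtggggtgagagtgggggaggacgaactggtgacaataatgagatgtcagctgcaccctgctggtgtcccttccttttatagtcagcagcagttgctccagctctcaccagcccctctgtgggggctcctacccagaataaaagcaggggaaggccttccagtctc
Myl7: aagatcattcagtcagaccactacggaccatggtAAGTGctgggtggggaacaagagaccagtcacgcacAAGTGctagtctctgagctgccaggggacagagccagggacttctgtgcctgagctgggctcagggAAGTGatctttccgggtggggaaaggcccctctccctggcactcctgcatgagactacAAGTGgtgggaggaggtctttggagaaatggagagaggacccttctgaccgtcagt
Mybpc3: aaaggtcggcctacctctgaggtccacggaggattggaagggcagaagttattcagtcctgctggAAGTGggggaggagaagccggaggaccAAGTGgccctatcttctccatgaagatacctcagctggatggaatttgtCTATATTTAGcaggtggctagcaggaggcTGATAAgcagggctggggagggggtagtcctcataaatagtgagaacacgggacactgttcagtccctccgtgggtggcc
Myh6: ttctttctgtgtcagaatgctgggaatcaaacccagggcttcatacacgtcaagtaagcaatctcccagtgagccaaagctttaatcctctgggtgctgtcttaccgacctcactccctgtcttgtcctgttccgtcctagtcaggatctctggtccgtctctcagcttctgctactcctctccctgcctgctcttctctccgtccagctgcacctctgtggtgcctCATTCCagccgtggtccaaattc

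The MEF2 core was found in Mybpc3 alone among the 9 genes, and in 3.41% of all 33469 promoters. The GATA core (AGATAA or TGATAA) was found in Mybpc3, Nppa, Tnni3 and Tnnt2, and in 16.9% of all promoters. The NKX2-5 core (AAGTG) occurred 4 times in Myl7 and was also found in Mybpc3 and Nppa, beside 40.6% of all promoters. MCAT (CATTCC), the element bound by TEAD factors, was found in Myh6 and Tnnt2 and in 12.1% of all promoters. Neither the CArG box, the element of serum response factor, nor the T-box (AGGTGTNA) was found in any of the 9, beside 1.50% and 2.60% of all promoters. The E-box (CANNTG), which can overlap the NKX2-5 core and is not capitalized, was found in 7 genes and in 65.5% of all promoters. The Myl4 window held none of the capitalized motifs, so the 4 promoters shared no motif apart from the E-box. A match describes letters in this window and does not show binding.

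Depth was 8483554 to 12055500 read equivalents per library, and 1 read was worth 0.795 to 1.204 normalized counts. High smoke replicates 1, 3 and 7 stood apart on the first principal component of all genes (scores 36.5 to 51.5, beside at most 8.8 elsewhere), and air replicate 3 on the second (44.6). These libraries are named beside the results that they touch. A library at 0 can still hold a gene at up to 3 reads, which is 2.38 to 3.61 normalized counts depending on the library.

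Across the libraries the heart muscle genes varied more between rats of the same group than between groups. In every group some lungs held them at low levels, near 0 for several of the genes, and others at high levels. The ranges of the 3 groups overlapped for all 9 genes. Group medians followed 1 order for all 9: highest in high smoke, lower in air and lowest in low smoke. No gene passed the test in high smoke against air or against low smoke.

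**Figure D1:**
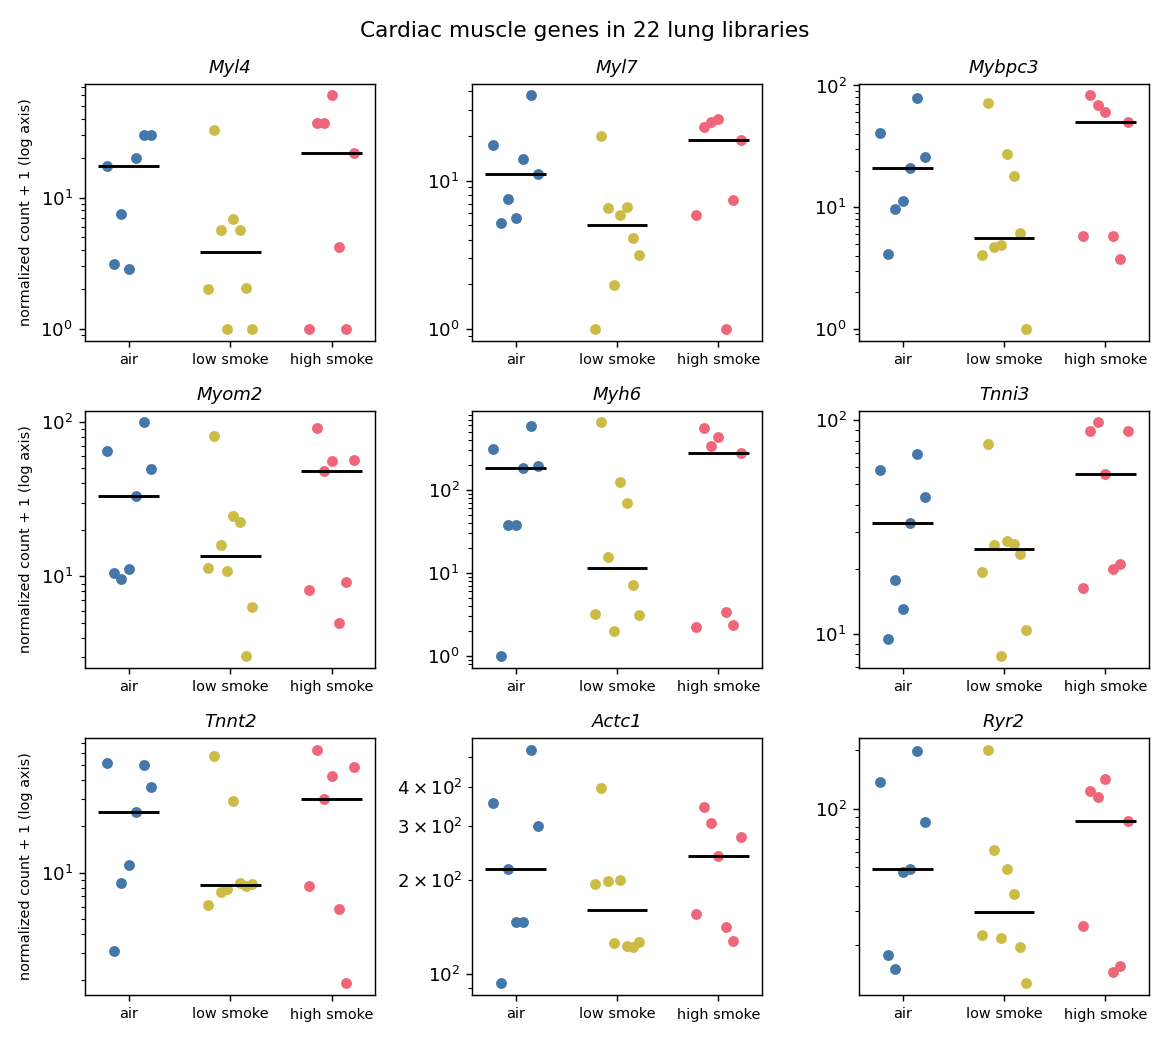
Normalized count + 1 (log axis) of each of the 9 genes in every library, with 1 point per library and a black line at the group median. Points of the 3 groups overlap for every gene, and 1 low smoke library stands above the other 7 in each panel.

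Myl4, the atrial essential light chain of myosin (chr10:92628356-92638101 in build rn6, plus strand), ranged from 1.85 to 29.2 normalized counts in air (median 16.5), from 0 to 31.5 in low smoke (median 2.84) and from 0 to 59.1 in high smoke (median 20.8). It was at 0 in low smoke replicates 4 and 8 and in high smoke replicates 1 and 6, and highest in high smoke replicate 4. Myl7, the atrial regulatory light chain (chr14:86143862-86147554, minus strand), ranged from 4.21 to 36.6 in air (median 10.1), from 0 to 19.1 in low smoke (median 3.98) and from 0 to 25.2 in high smoke (median 17.8). Air replicate 6 held its highest value, and the next highest library of that group held 16.5. The groups overlapped for both light chains, and 8 libraries for Myl4 and 5 for Myl7 held 3 reads or fewer.

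Myh6, the alpha myosin heavy chain and the main motor of the atria and of the adult rodent heart (chr15:33605654-33629700, minus strand), varied most from rat to rat on the log2 scale. It ranged from 0 to 591.5 in air (median 179.4), from 0.981 to 644.5 in low smoke (median 10.4) and from 1.20 to 552.1 in high smoke (median 274.8). In 7 libraries Myh6 held 3 reads or fewer, so its spread on the log2 scale rests in part on values at the floor. Within high smoke, replicates 2, 4, 3 and 7 held 552.1, 430.4, 338.5 and 274.8, whereas replicates 5, 6 and 1 held 2.38, 1.36 and 1.20. Of the 3 libraries that stood apart over all genes, 2 were thus on the high side and 1 on the low side. Myh6 lies beside its close relative Myh7 on the same strand, and its values came to whole reads in only 8 of 22 libraries, so the division of reads between the copies is uncertain.

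Mybpc3, the cardiac myosin-binding protein that braces the thick filament (chr3:79940561-79958731, plus strand), ranged from 3.16 to 77.6 in air (median 19.9), from 0 to 70.6 in low smoke (median 4.54) and from 2.73 to 82.1 in high smoke (median 49.5). Myom2, which crosslinks thick filaments at the M-line (chr16:79587640-79671720, minus strand), ranged from 8.64 to 97.6 in air (median 31.9), from 2.06 to 79.2 in low smoke (median 12.6) and from 3.97 to 89.7 in high smoke (median 46.6). For both genes air replicate 6, low smoke replicate 2 and high smoke replicate 2 were the highest of their groups, and the groups overlapped over most of their range.

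Of the thin filament genes, Tnni3 encodes cardiac troponin I, the inhibitory subunit (chr1:72882806-72886489, plus strand). It ranged from 8.42 to 68.7 in air (median 31.9), from 6.87 to 76.4 in low smoke (median 23.8) and from 15.3 to 96.4 in high smoke (median 55.1). Its row overlaps 4 other rows, of which the highest had a mean of 95.04. Among them is Dnaaf3, an assembly factor of motile cilia, on the same strand. Only 12 of 22 Tnni3 values came to whole reads, so reads may be divided there. Tnnt2, the tropomyosin-binding troponin T of the heart (chr13:52662996-52680991, plus strand), ranged from 2.11 to 50.2 in air (median 23.9), from 5.13 to 56.3 in low smoke (median 7.34) and from 0.910 to 62.0 in high smoke (median 29.3). In low smoke its 6 lowest libraries lay between 5.13 and 7.51 while replicates 5 and 2 held 28.2 and 56.3.

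Actc1, the cardiac alpha actin (chr3:105507403-105512940, minus strand), ranged from 92.1 to 526.5 in air (median 216.7), from 121.0 to 395.8 in low smoke (median 159.8) and from 126.1 to 343.9 in high smoke (median 238.3). No library was near 0 for it. Its values came to whole reads in 3 of 22 libraries, and how reads were divided with the other, nearly identical actin genes is not given in the sources used here. Ryr2, the cardiac ryanodine receptor that releases calcium (chr17:65535403-65955607, minus strand), ranged from 14.0 to 197.4 in air (median 47.8), from 11.7 to 199.5 in low smoke (median 28.6) and from 13.5 to 140.5 in high smoke (median 85.1). For Ryr2 too, air replicate 6 and low smoke replicate 2 were the highest of their groups.

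The comparison of high smoke with air asks how lung expression differs after the stronger of both exposures. Of the 9 heart muscle genes 0 passed the limma test at an adjusted p below 0.05, and 0 had an unadjusted p below 0.05, while 16.3% of all genes tested passed (9.21% higher and 7.05% lower). That background rests in part on single libraries: of 2343 genes, 1453 passed without high smoke replicate 1, 1461 without replicate 3 and 1550 without replicate 7. These were the lowest counts, but leaving out other libraries lowered it too, to 1669 without air replicate 4 and 1775 without air replicate 1. Without some libraries the count rose, up to 2863 without high smoke replicate 4. The median difference of the 9 heart muscle genes was -0.13 on the log2(normalized count + 1) scale, where all genes had -0.00. This scale makes differences of genes with low counts too small. Below air lay 7 genes, and 2 lay above it. The difference was smaller than its SE for every gene but Tnni3.

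Tnni3 lay farthest above air, with 54.5 ± 36.4 in high smoke and 34.0 ± 23.3 in air (SD, n = 7 each). The difference was 0.65 (SE 0.52, 95% interval -0.41 to 1.71, limma adjusted p = 0.416). Myh6 lay farthest below on the log2 scale, by -0.64 (SE 1.56, interval -3.85 to 2.56, adjusted p = 0.816), although its mean count was higher in high smoke, at 228.7 ± 228.8 beside 191.7 ± 207.4 in air (SD, n = 7 each). Myl4 also had the higher mean count in high smoke, 22.2 ± 22.7 beside 14.8 ± 11.7, and the lower log2 mean, by -0.21 (SE 0.93). For these genes the mean count, the median and the log2 mean do not give 1 direction.

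The narrowest interval belonged to Actc1, at -0.72 to 0.63 around a difference of -0.05 (adjusted p = 0.944). For Mybpc3 the difference was 0.22 (SE 0.85), for Myom2 -0.17 (SE 0.71), for Myl7 -0.13 (SE 0.67), for Tnnt2 -0.13 (SE 0.73) and for Ryr2 -0.08 (SE 0.65), with adjusted p between 0.894 and 0.951. The intervals thus leave room for differences of more than 1 log2 unit either way in 7 of the 9 genes. Apart from Tnni3, every gene changed sign in this comparison when single libraries were left out, and Mybpc3 was at -0.03 without high smoke replicates 1, 3 and 7.

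High smoke was also compared with low smoke, which shares the low smoke libraries with the comparison that chose the genes, so its direction is no independent result. All 9 genes lay above low smoke, with a median difference of 0.99 beside 0.00 over all genes. None of the 9 passed (0 at an unadjusted p below 0.05), while 6.78% of all genes tested passed (3.8% higher and 2.98% lower). These 977 genes depended strongly on single libraries. Without high smoke replicate 7, 1 or 3 the count was 29, 35 or 51, without low smoke replicate 2, 1, 4 or 3 it was 296, 316, 399 or 550, and without high smoke replicate 6 or 4 it was 1575 or 1651. Myl4 (1.41, SE 0.90), Mybpc3 (1.40, SE 0.83), Myh6 (1.31, SE 1.51) and Myl7 (1.24, SE 0.65) lay farthest above, with adjusted p of 0.337, 0.294, 0.625 and 0.231. Tnni3 had the smallest error of the larger differences, 0.99 (SE 0.50, interval -0.04 to 2.02, adjusted p = 0.216). Myom2 lay 0.78 above, Ryr2 0.53, Tnnt2 0.51 and Actc1 0.31, with adjusted p between 0.507 and 0.698. Without high smoke replicate 5, where Myl7 was at 0, its difference was 1.80 with an adjusted p of 0.0496.

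In low smoke against air all 9 genes lay lower, by a median of -0.95, from -1.95 for Myh6, -1.62 for Myl4 and -1.36 for Myl7 to -0.36 for Actc1 and -0.34 for Tnni3. These differences chose the genes and carry no test here. Over all genes tested, 0% passed in that comparison, and 923 genes had an unadjusted p below 0.05. Mean counts in low smoke rested in large part on replicate 2. With that library Myh6 averaged 107.8 ± 221.2 (SD, n = 8), and over the other 7 it averaged 31.2 ± 47.4. Mybpc3 averaged 16.2 ± 23.7 with it and 8.44 ± 9.52 without it, and Myl4 6.09 ± 10.5 and 2.46 ± 2.50.

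**Figure D2:**
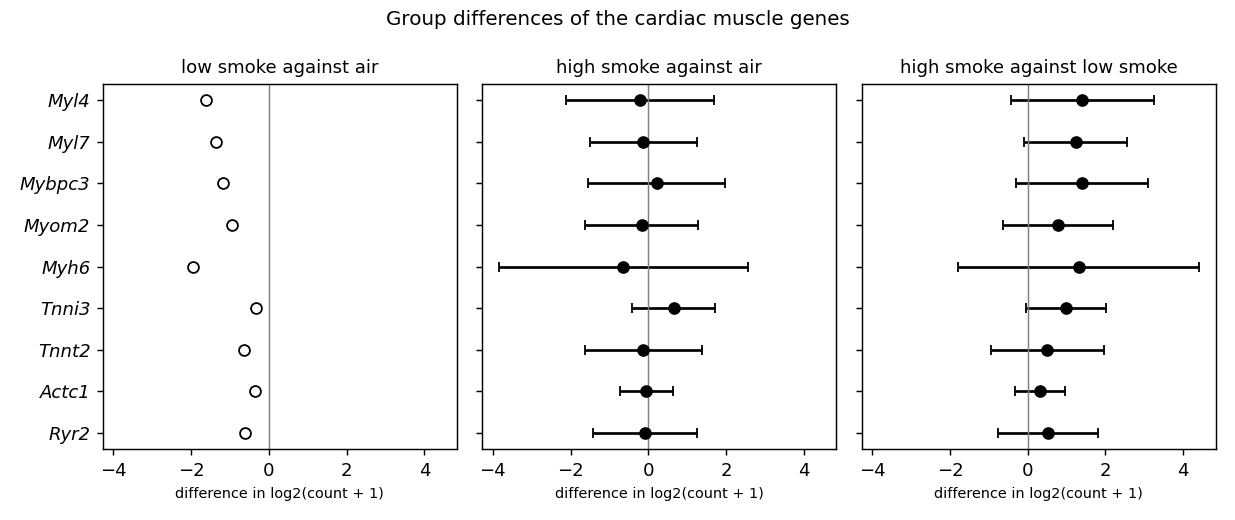
Difference of each gene on the log2(normalized count + 1) scale in the 3 comparisons, with 95% intervals from limma as bars. Low smoke against air is drawn as open points with no interval because it chose the genes. The intervals span 0 for all 9 genes in both tested comparisons.

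The spread between rats set these genes apart from most of the transcriptome. The SD of log2(normalized count + 1) within groups had a median of 1.50 over the 9 genes, and of 0.234 over all genes tested. Myh6 had 3.34, above all 1555 genes of like level, taken as those within 0.5 log2 units of its mean. That value rests in part on the 7 libraries where Myh6 held 3 reads or fewer. Mybpc3 (1.79), Tnnt2 (1.55), Myom2 (1.50), Ryr2 (1.38), Tnni3 (1.09) and Actc1 (0.69) lay between percentiles 98.6 and 99.5 of genes of their level. The low-count light chains had lower percentiles, Myl4 with 1.95 at percentile 90.2 of 61 genes and Myl7 with 1.37 at percentile 84.2 of 177. Genes of their level were themselves more spread, with a median SD of 1.20 for Myl4 and 0.737 for Myl7. For the other heart muscle genes that median ran from 0.210 (Actc1) to 0.527 (Mybpc3). At so low a log2 mean, the filter on mean count keeps genes with uneven counts. The percentiles of the light chains thus cannot show whether their spread was less extreme. Group membership took 3.72% to 19.5% of the variance of the single genes, with a median of 8.39%, while over all genes tested the median was 15.1%. These genes were chosen with their spread known, so the percentiles are descriptions.

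The 9 genes were high and low in the same rats. By mean rank over the genes, air replicate 6, high smoke replicate 2 and low smoke replicate 2 came first, and air replicate 2 and low smoke replicate 8 came last. Summed over the 9 genes, air libraries held 138 to 1673 normalized counts (median 512), low smoke libraries 164 to 1573 (median 281) and high smoke libraries 181 to 1398 (median 913). The first 8 of the 22 places held 3 air, 1 low smoke and 4 high smoke libraries, and the last 8 held 1, 4 and 3. Low smoke replicate 2 was the highest low smoke library for each of the 9 genes. In bulk RNA, fewer heart muscle cells in the piece and less RNA per cell cannot be told apart.

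High smoke replicates 1, 3 and 7, apart over all genes, took places 15, 5 and 7 in this order, and air replicate 3 took place 12. Of the 3, 2 lay among the high places and 1 among the low ones, so these genes did not follow the first component within high smoke. Among the 36 pairs of genes, Spearman's rho over the 22 libraries ran from 0.77 to 0.93 (median 0.84). After subtraction of group means it ran from 0.73 to 0.94 (median 0.87). All 36 values were above 0 within air (0.64 to 1), within low smoke (0.29 to 1) and within high smoke (0.61 to 0.96). These are descriptions over libraries that share 1 normalization.

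**Figure D3:**
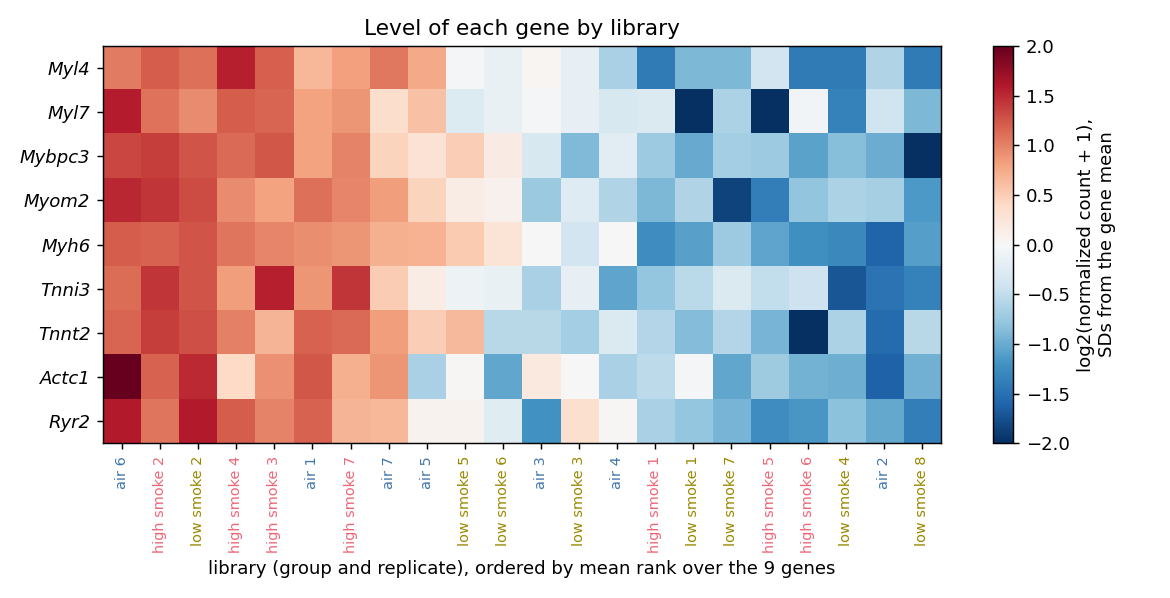
Level of each of the 9 genes (rows) in every library (columns, ordered by mean rank), as log2(normalized count + 1) in SDs from the mean of the gene over 22 libraries. Columns are red or blue nearly throughout, and air, low smoke and high smoke libraries are mixed along the order.

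Outside the 9 genes, the closest patterns belonged to other heart muscle genes. Likeness was the Spearman rho of a gene with the mean standardized level of the 9 over 22 libraries, for 12784 tested genes with a gene name. Over all of these the median was -0.01, and percentiles 5 and 95 were -0.32 and 0.34. Only 23 genes were above 0.7, and 1 was below -0.7. The 10 genes nearest to the pattern were all in the lists of heart or striated muscle genes, and the same 10 came first after subtraction of group means. The lists were chosen with earlier results of these data known, so this membership is a description.

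Of the calcium genes among them, Hrc, which binds calcium in the sarcoplasmic reticulum, was nearest with a rho of 0.956 (Pearson's r 0.943), and averaged 31.6 ± 23.9 in high smoke, 28.5 ± 15.5 in air and 21.9 ± 18.2 in low smoke (SD). Srl, a glycoprotein of the same membrane system, had 0.912, and Casq2, the calcium-storing calsequestrin of the heart, had 0.892. Of the sarcomere and Z-disc genes, Actn2 (alpha-actinin, which anchors thin filaments) had 0.919, Csrp3 (muscle LIM protein) 0.913, Cmya5 0.896 and Nrap 0.846. Ckmt2, the mitochondrial creatine kinase of striated muscle, had 0.915 and the small heat shock protein Hspb7 had 0.839. Mybphl, an atrial relative of the myosin-binding proteins, had 0.81. Without the 2 libraries farthest from the median, air replicate 6 and low smoke replicate 2, the rho of these genes other than Mybphl ran from 0.80 to 0.95.

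Likeness differed between the lists of heart muscle genes. Of 20 other sarcomere genes with a row, 13 had a rho above 0.7, with a median of 0.78. Several of them stayed below a mean of 10, such as Myoz2 (0.96, mean 7.12), Xirp2 (0.92, mean 7.19), Lmod2 (0.90, mean 4.13), Smpx (0.87, mean 3.86), Tnnc1, the calcium-binding troponin (0.78, mean 6.16), and Myh7, the slow myosin heavy chain (0.75, mean 4.06). Reads of Myh7 may be divided with its close relative Myh6, which is part of the pattern. Nebl (0.03), Ankrd1 (0.18) and Myh7b (0.12) did not share the pattern. Among 17 calcium genes 4 were above 0.7 (median 0.36), namely Hrc, Srl, Casq2 and Trdn (0.79). Atp2a2, the calcium pump that lung cells of many types express, had 0.62, and its partner Pln 0.63.

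Of 18 genes of energy metabolism and chaperones, 5 were above 0.7 (median 0.38), among them Mb (myoglobin, 0.92) and Ckm (0.86). The 23 conduction and channel genes had a median of 0.11. Gja5 (-0.08) and Gja1 (-0.30), gap junction genes that lung endothelium and other cells also use, did not follow. Of 15 transcription factors, Tbx20 (0.94, mean 8.50) and Smyd1 (0.74, mean 1.67) were above 0.7, and the median was 0.02. Of 7 genes for hormones and secreted products, Fgf13 was above 0.7 (0.71), and the median was -0.04.

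**Figure D4:**
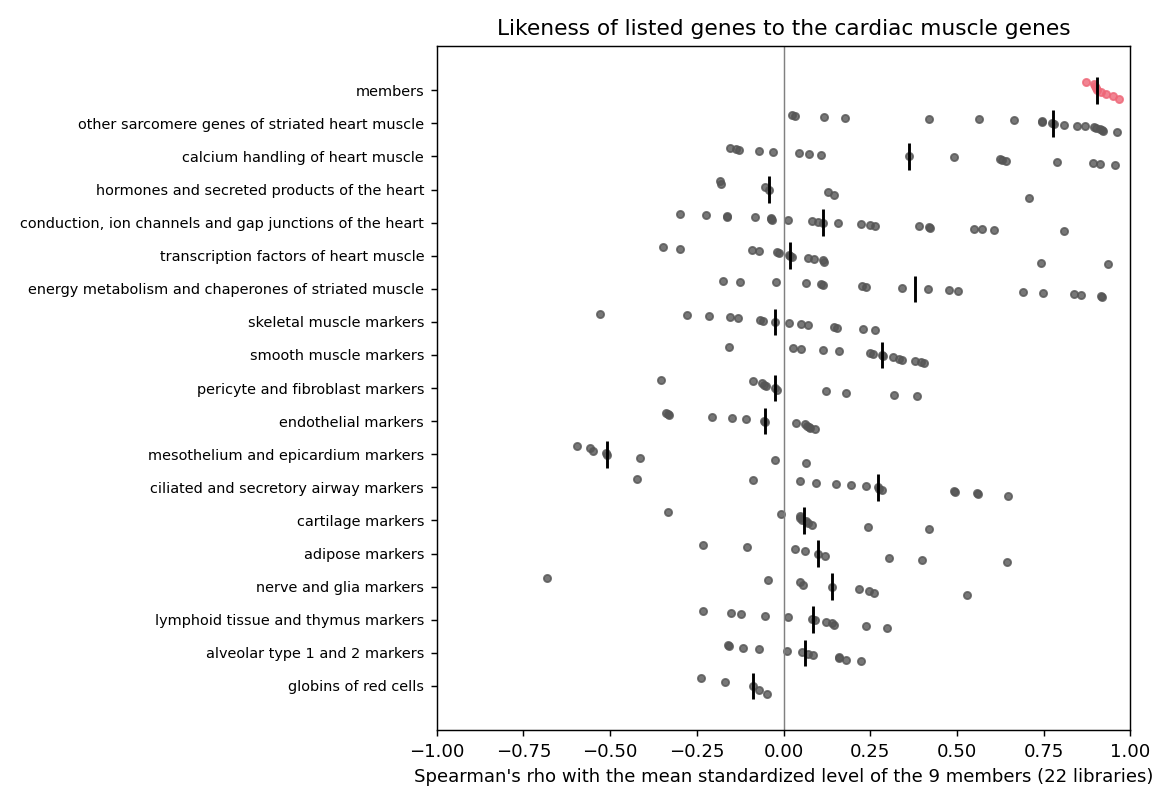
Spearman's rho of each listed gene with the mean standardized level of the 9 heart muscle genes over 22 libraries, by gene list, with a black bar at the median. The 9 genes themselves are part of the measure that they are compared with. Other sarcomere genes reach the highest values outside the 9, and mesothelium and epicardium markers lie mostly below 0.

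The related heart muscle lists were read against the 16.3% of all genes that passed in high smoke against air. In that comparison 1 of 11 other sarcomere genes tested fell, 0 of 13 calcium genes passed, 1 of 13 energy genes rose and 1 fell, 1 of 18 conduction genes fell, 2 of 11 transcription factors rose and 1 of 7 hormone genes fell, with list medians between -0.05 and 0.06. The genes were Nebl, the nebulin relative of the Z-disc (-0.43, adjusted p = 0.00669), Cryab, a small heat shock protein (0.73, 0.00155), Pgam2, the muscle phosphoglycerate mutase (-0.79, 0.0291), Gja1, connexin 43 (-0.31, 0.0239), the transcription factors Tbx5 (0.31, 0.0142) and Hopx (0.36, 0.0203), and Pam, a peptide-amidating enzyme (-0.17, 0.0468). None of these 7 had a rho above 0.24 with the heart muscle genes, and none passed without high smoke replicates 1, 3 and 7, where adjusted p ran from 0.0760 for Cryab to 0.536 for Pgam2. With that smaller group the differences of Gja1 (-0.31), Tbx5 (0.30), Nebl (-0.36), Hopx (0.29) and Pam (-0.15) stayed near their values, while those of Cryab (0.43) and Pgam2 (-0.35) were over 1.5 times smaller. In high smoke against low smoke Nebl (-0.35, 0.0365), Cryab (0.60, 0.0174) and Pgam2 (-0.77, 0.0482) passed, and no other gene of these lists did, beside 6.78% of all genes.

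The label of the genes was checked against markers of other muscle. The atrial light chains Myl4 and Myl7 followed the pattern (rho 0.90 each, as part of it), as did Mybphl (0.81) among the other atrial markers. Of the 8 atrial markers with a row outside the chosen genes, Mybphl was the 1 above 0.7 and the median was 0.05, with Nr2f2 at 0.07, Tbx5 at 0.02, Kcna5 at 0.16 and Kcnj3 at -0.16. Sln, an atrial regulator of the calcium pump, was at 0 in 14 libraries, and Bmp10 had -0.36. Of the ventricular light chains, Myl3 was at 0 in 10 libraries with a highest value of 5.16 and a rho of 0.02, and Myl2 was not analysed here. Of 4 ventricular markers with a row, Myh7 was the 1 above 0.7, and the median was 0.12. The uncertain division of reads with Myh6, a part of the pattern, applies to Myh7 as well. Of 15 skeletal muscle markers 0 were above 0.7 (median -0.03), with Myog at 0 in 16 libraries, Cacna1s and Tnnt1 at 0 in 14 each and a highest value of 10.0 for Acta1 and 12.3 for Myh4. Other skeletal markers were present in every library, Neb at 283.0 to 713.4 (rho -0.21), Casq1 at 24.6 to 49.7 (0.26) and Tnnt3 at 13.0 to 33.9 (0.05). Most atrial, ventricular and skeletal markers outside the chosen genes thus did not follow the pattern. Some of them are not particular to muscle, such as Nr2f2 (mean 1222), also listed as an endothelial marker, and Gja5 (mean 1195), which lung endothelium also uses. A low rho of such a gene does not tell the type of heart muscle. Whether the muscle lay in vein walls cannot be told from lung pieces.

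Among markers of other lung tissue, the mesothelium and epicardium list moved most by its median, against the order. Airway and smooth muscle markers moved with the order to a lesser degree. Of 8 mesothelium and epicardium markers 7 were below 0 (median -0.51), down to -0.60 for Upk1b. Their summed level was 1531 to 2864 in air, 1644 to 3922 in low smoke and 1823 to 3869 in high smoke. Krt19, with a mean of 1497 and a rho of -0.02, was the largest part of that sum, which had a rho of -0.26. Of 15 airway markers 13 were above 0 (median 0.27), up to 0.65 for Cyp2f4, with sums of 11473 to 17151 in air, 11328 to 15640 in low smoke and 11287 to 18087 in high smoke. Of 15 smooth muscle markers 14 were above 0 (median 0.28), with sums of 30059 to 42193 in air, 33459 to 40095 in low smoke and 33691 to 43089 in high smoke. No mesothelium marker with a row was at 0 in any library. The part of these tissues in the spread of the heart muscle genes was not tested. Medians of the other lists lay between -0.09 (globins) and 0.14 (nerve and glia).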

How the data were processed

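RNA from rat lung was sequenced on a NextSeq 500 from PrepX libraries made from 1 µg of RNA, per the labels' protocols. Per the submitters' processing notes, STAR 2.7.3a, Partek, DESeq2 and genome build rn6 were used. The counting rule, strand setting and annotation release are not given in the sources used here. The values the authors deposited are a signal: read counts of genes after division by the size factor of each library. Only 80.8% to 82.9% of values under 200 came within 0.02 of a whole read in each library, so whole reads were not recovered and no count model was used. Columns were matched to samples by the sample descriptions, and 0 columns were left unmapped.

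Values were transformed to log2(value + 1). Genes averaging 10 or more across 22 libraries, 14414 in number, entered 1 limma 3.58.1 fit (R 4.3.3) with 3 group means, mean-variance trend on and robust off. Tests were two-sided, with Benjamini-Hochberg adjustment over all 14414 genes and a threshold of 0.05. The fit was tested on simulated data. Likeness, spread and ranks were computed in Python 3.11.15 as descriptions. Depth limits the genes with few reads most, and the floor of 3 reads covers counting error only.

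The members and the other 20 gene lists were chosen with earlier results of these data known. Of 285 listed genes, 244 were matched by symbol, 2 by synonym and 39 had no match. The naming rule took all members, from each other list up to 4 genes past the threshold with the smallest p or else the 3 with the highest mean, and the 10 genes nearest to the members with and without group means. A gene that the rule selects is not reported here. From the lists of other tissues the named genes are given by their counts and extremes. Genes named outside this rule as the ends of a list or as markers were chosen after their values were seen. Alternatives were other pseudocounts, level filters, scalings, array weights, robust shrinkage, 2-group fits and leaving out each library. Leaving out high smoke replicates 1, 3 and 7 together, with and without air replicate 3, was added after seeing the data.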

Additional observations from a re-analysis of the deposited data

Results flagged for a closer look

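A library was marked where its gap to the nearest library of its group was large against the range of the group on the log2 scale (Dixon's ratio). Of 90 groups tested, 4 were marked, 1 of them among the 27 groups of single heart muscle genes, and chance marks about 1 in 20. For Actc1, the cardiac actin, low smoke replicate 2 was the highest at 395.8, with 199.4 next. For the sum of the other sarcomere genes the same library was the highest of low smoke at 1592, with 1089 next. For the sum of endothelial markers, air replicate 7 was the lowest of air at 47869, with 52629 next. For the sum of lymphoid tissue and thymus markers, air replicate 5 was the lowest of air at 556.3, with 787.3 next.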

How the results depend on the processing

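The count of heart muscle genes past the threshold in high smoke against air was 0 under all 33 alternatives run. In high smoke against low smoke it was 0 under 31 of 32 alternatives and 1 without high smoke replicate 5 (a leave-one-out range of 0 to 1), where Myl7 passed at 1.80. All 9 genes kept their direction in high smoke against low smoke and in low smoke against air in every fit that held them. The genes were chosen on low smoke against air, and high smoke against low smoke shares its low smoke libraries. A kept direction in these comparisons is thus a description and no independent result. The median in low smoke against air ran from -1.31 to -0.52. In high smoke against air Myl4 changed sign at a pseudocount of 5 (0.11) and with array weights (0.0083), Myl7 at a pseudocount of 5 (0.039), and Mybpc3 without high smoke replicates 1, 3 and 7 (-0.033) and without these and air replicate 3 (-0.19). The cause was not tested. Leaving out single libraries in that comparison gave ranges across 0 of -0.25 to 0.17 for Actc1, -0.14 to 0.64 for Mybpc3, -1.67 to 0.083 for Myh6, -0.65 to 0.33 for Myl4, -0.32 to 0.43 for Myl7, -0.49 to 0.21 for Myom2, -0.39 to 0.23 for Ryr2 and -0.56 to 0.39 for Tnnt2. Myl7 fell under the level filter in 3 of the 22 such fits and has 19 values. The median spread of the genes ran from 1.20 to 1.50 over its alternatives, and the 10 genes most like them were shared with group means taken out. Over all genes, 2343 passed in high smoke against air and 1351 in a fit of only these groups, and 124 without high smoke replicates 1, 3 and 7. Without those libraries 0 passed in high smoke against low smoke, beside 977 with them. No paired analysis was possible because the labels number rats, not pairs, so a shared replicate number links nothing. Depth limits the genes held at a few reads. The spread between rats limits all 9, with intervals in high smoke against air from -0.72 to 0.63 for Actc1 to -3.85 to 2.56 for Myh6.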
